A study of Mus musculus with 16 samples.

Results

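Ischemia reperfusion of the kidney was compared with the uninjured kidney in mice that received vehicle. The comparison takes 8 of the 16 libraries of the study, the 4 labelled ischemia reperfusion with vehicle (IRV) and the 4 labelled normal with vehicle (NV), and the members were chosen by these labels. All came from kidneys of male C57BL/6 mice aged 12 weeks, a wild-type inbred strain with no transgene in the labels. IRV mice had ischemia reperfusion, in which blood flow to the kidney is stopped and then restored, and NV mice were uninjured. The other 8 libraries, uninjured or injured mice given the PARP inhibitor PJ34, entered the fit for the scaling, the filter on low counts and the spread between libraries, and no comparison is made with them. The question this comparison addresses is what the injury alone left in the kidney, since the study followed the longer-term course after reperfusion. The labels do not say how many days passed, whether 1 or both kidneys were operated on, or that the 4 replicates of a group were 4 animals, so the p-values measure only the spread between these libraries.

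Each nephron filters blood at the glomerulus, where podocytes hold the filter in place, and then reclaims most of the filtrate along the proximal tubule in its S1, S2 and S3 segments. The loop of Henle with its thick ascending limb, the distal convoluted tubule, the connecting tubule and the collecting duct adjust salt, calcium, acid and water after that. Proximal tubule cells burn fatty acids and amino acids in mitochondria and are known as the cells most exposed to a loss of oxygen, and survivors can lose their specialised transporters and switch on injury proteins while they repair.

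Levels are given in CPM, a gene's count as a share of the library total after TMM scaling, which corrects library size by the genes that most libraries share. The NV libraries held 1393716 to 1538622 counts. IRV replicates 1 and 2 were of similar depth, at 973812 and 1659983, whereas IRV replicates 3 and 4 held 5365139 and 6169748. Sensory receptor genes (olfactory, vomeronasal, taste, trace amine) together held 5986 to 8254 CPM of the library total in NV and 9989 and 6274 in IRV replicates 1 and 2, against 548.2 and 633.9 in IRV replicates 3 and 4. Depth and these receptor counts therefore split the IRV group, and the counts of gene lists and many of the leading genes below are given also for IRV replicates 1 and 2 against NV, fitted within the 10 libraries under 2000000 counts (the matched-depth comparison). Counts from the mitochondrial genome made up 21.6, 21.7, 22.9 and 20.6% of the NV libraries and 10.5, 17.9, 14.7 and 16.3% of the IRV libraries. All 4 IRV shares lay below all 4 NV shares (exact permutation test, two-sided, p = 0.0286, the smallest that 4 against 4 can give).

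Of 13614 genes tested, 2162 (15.9%) rose and 1511 (11.1%) fell in IRV relative to NV at an adjusted p under 0.05 (edgeR's quasi-likelihood test). At matched depth 880 of 13564 genes (6.49%) were higher and 927 (6.83%) lower. A covariate for the library set left 1080 genes higher (7.93%) and 835 lower (6.13%). The contrast with IRV replicates 3 and 4 alone gave 2606 higher (19.1%) and 3291 lower (24.2%). A change of at least 2-fold was found in 1128 of the higher and 381 of the lower genes. The 4 IRV values lay above all 4 NV values, called or not, in 2049 genes (15.1%) and below them in 1615 (11.9%). The direction of small changes depends on the scaling: with library totals in place of TMM factors the median log2 change of all genes moved from -0.03 to 0.49 and the split became 5716 higher and 246 lower. Without the low-count filter, which also resets the TMM factors, the split was 3124 higher and 600 lower, and limma-voom gave 1575 and 3324. A fit of only the 8 IRV and NV libraries gave 1470 higher and 1512 lower. All log2 changes below are on the TMM scale of their own fit, unless another scaling is named, and none was recentred on the median.

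The median change of proximal tubule genes was below 0 in S1, S2 and S3, while the share of genes that fell differed. Of 15 tested S1 genes 14 fell and none rose (median log2 change -1.0, against 11.1% lower and a median of -0.03 over all genes tested). In S2 7 of 10 fell, with a median of -0.71, and in S3 7 of 15, with a median of -0.73, and none rose in either. At matched depth 13, 8 and 8 fell, with medians of -1.07, -0.75 and -0.82. In bulk tissue, fewer cells of a type and less RNA per cell cannot be told apart.

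Slc34a1, the main phosphate transporter of the brush border, stood at 3313, 2786, 3362 and 3387 CPM in the NV libraries and 1139, 1724, 1456 and 1612 CPM in the IRV libraries. The 4 IRV values lay below all NV values, a change of -1.11 ± 0.19 on the log2 scale (SE; adjusted p = 0.00038), and -1.17 ± 0.20 at matched depth. Slc5a2, which encodes the glucose transporter SGLT2 of S1, had 225, 155, 230.5 and 218 CPM in NV and 65.8, 130.1, 104 and 108 CPM in IRV. It fell by 1.01 on the log2 scale (SE 0.21; adjusted p = 0.0021) with no overlap between groups, and IRV replicate 1 was the lowest. Gatm, which makes the creatine precursor guanidinoacetate, went from 882 ± 230.1 to 327 ± 60.5 CPM (SD, n = 4), a log2 change of -1.43 ± 0.23, and Spp2, a secreted phosphoprotein, from 63.5 ± 10.6 to 20.4 ± 7.50, a change of -1.61 ± 0.29. Lrp2, the endocytic receptor megalin, changed by -0.95 ± 0.20, Slc7a8, a basolateral amino acid exchanger, by -1.0 ± 0.16, and Slc13a3, a dicarboxylate transporter, by -1.22 ± 0.15.

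Transporters of organic anions and urate fell in S2. Slc22a8 (OAT3) had 309.5, 230.5, 272 and 287 CPM in NV and 69.9, 129, 126 and 139 CPM in IRV, a log2 change of -1.23 ± 0.19 (adjusted p = 0.00026). Its close relative Slc22a6 (OAT1) changed by -0.74 ± 0.14, Slc17a1, a phosphate and urate carrier of the apical membrane, by -0.77 ± 0.15, and Slc22a12 (URAT1) by -0.75 ± 0.16. In S3, Slco1a6, an organic anion carrier, fell from 188 ± 28.5 to 92.4 ± 18.1 CPM (log2 change -1.01 ± 0.17), Ggt1, the brush-border enzyme that splits glutathione, changed by -0.87 ± 0.18, and Slc7a9, the light chain of the cystine transporter, by -0.80 ± 0.20.

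Slc7a13, the aspartate and glutamate transporter that marks S3, stood at 389, 626, 453 and 420.1 CPM in the NV libraries and 136, 305, 224 and 303 CPM in the IRV libraries. The groups did not overlap, and the change was -0.95 ± 0.30 (adjusted p = 0.027). It missed the threshold without NV replicate 2 (adjusted p = 0.094), IRV replicate 1 (0.056) or IRV replicate 3 (0.063), and its adjusted p was 0.061 once the model held a term for library set. In the count of S3 genes the same 3 libraries each brought 7 down to 3. Kap, the androgen-regulated kidney protein, differed by -0.51 ± 0.23 and did not pass (adjusted p = 0.1). Scaled by library totals alone, the S1, S2 and S3 medians were -0.49, -0.19 and -0.22, and Slc5a2, Lrp2, Slc22a6, Slc17a1, Slc22a12, Slc7a13, Ggt1 and Slc7a9 kept their direction but missed the threshold.

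**Figure D1:**
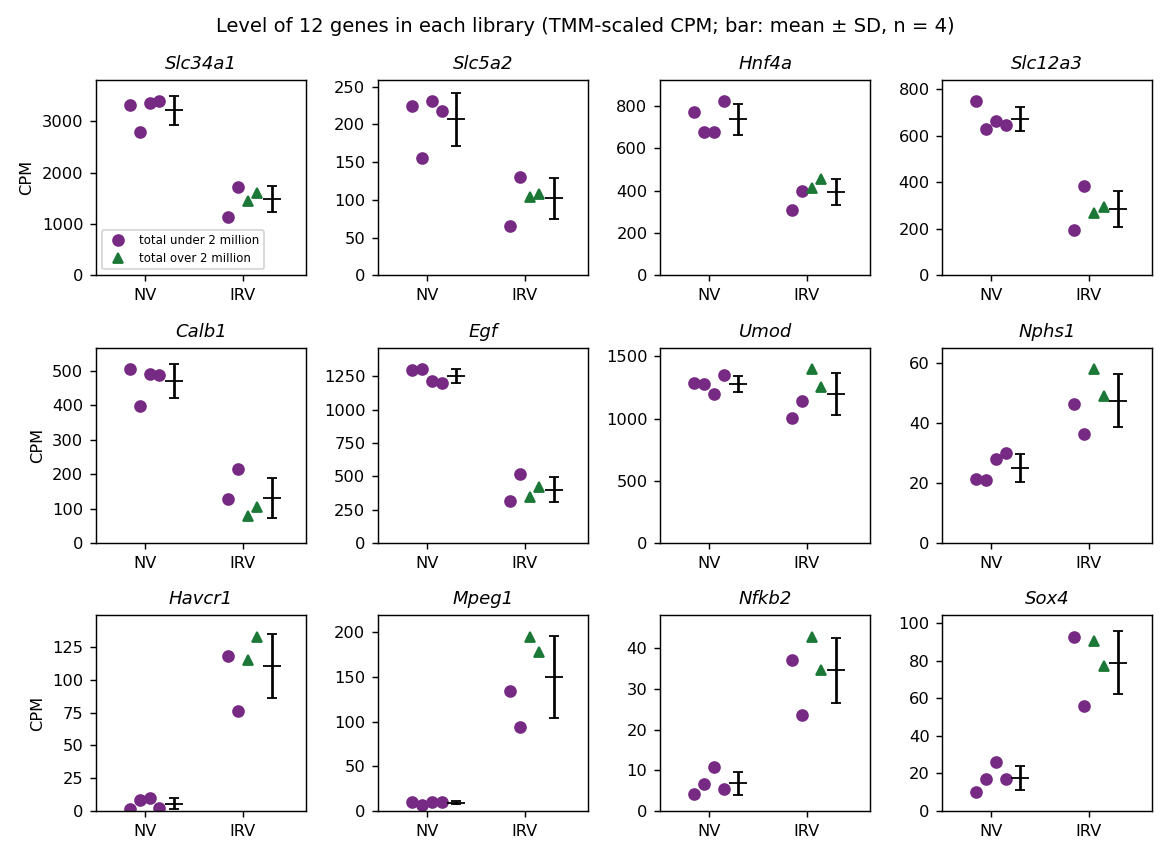
Level of 12 genes in each of the 8 libraries, in TMM-scaled CPM on linear axes from 0, with the group mean and SD beside the points. Circles are libraries with totals under 2000000 counts and triangles those over it. The IRV circles and triangles of Slc34a1 both lie below all NV points, while the points of Umod overlap between the groups.

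Past the proximal tubule, the segments differed in how many of their genes fell. Distal convoluted tubule genes fell in 7 of 11 cases with none higher (median -0.65; 6 of 11 at matched depth), and connecting tubule genes in 5 of 8 with 1 higher (median -1.20; 5 of 8 at matched depth). In the thick ascending limb 5 of 17 fell and 1 rose (median -0.29), and 3 of 15 fell at matched depth. A covariate for the library set left 3 lower in the distal convoluted tubule, 2 in the connecting tubule and 1 in the thick ascending limb. Principal cell genes fell in 2 of 13 and rose in 1 (median -0.12), and intercalated cell genes fell in 0 of 16 and rose in 1 by edgeR and DESeq2 (median -0.06; 1 lower and 2 higher at an unadjusted p under 0.05 by edgeR, and 1 lower by limma-voom), which is near the shares of 11.1% and 15.9% over all genes or below them. At matched depth 2 of 12 principal cell genes were lower, and 0 of 15 intercalated cell genes passed by edgeR, DESeq2 or limma-voom (1 lower at an unadjusted p under 0.05 by edgeR). The 2 principal cell falls became 1 without NV replicate 1, 2 or 4 or IRV replicate 3 or 4, and its rise was kept by edgeR with 1 library left out only without IRV replicate 1. Differences between segments were not tested.

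Slc12a3, the thiazide-sensitive sodium chloride cotransporter that defines the distal convoluted tubule, had 747, 630.3, 664 and 647 CPM in NV and 195, 384, 269 and 295 CPM in IRV. All IRV values lay below the NV values (log2 change -1.23 ± 0.40, adjusted p = 0.029; without NV replicate 1, IRV replicate 1 or IRV replicate 3 it was 0.059, 0.057 and 0.065). Its regulators fell with it. The kinase gene Wnk4 changed by -1.0 ± 0.21 (adjusted p = 0.0021) and Klhl3, the adaptor through which WNK kinases are degraded, by -1.0 ± 0.26. The basolateral potassium channel genes Kcnj10 and Kcnj16 changed by -0.95 ± 0.25 and -0.65 ± 0.15. Scaled by library totals alone, Slc12a3, Wnk4, Klhl3, Kcnj10 and Kcnj16 missed the threshold, with changes of -0.74, -0.48, -0.48, -0.44 and -0.14.

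The 5 connecting tubule genes that fell were Calb1, S100g, Slc8a1, Kl and Klk1, while the calcium pump gene Atp2b1 rose. Calb1, the cytosolic calcium buffer calbindin-D28k, stood at 505, 399.8, 492 and 488 CPM in the NV libraries and 129.5, 214, 80.2 and 105 CPM in the IRV libraries. NV and IRV did not overlap, and IRV replicates 3 and 4 lay lower than replicates 1 and 2; the change was -1.85 ± 0.43 over all 4 and -1.44 ± 0.20 at matched depth. S100g, the smaller calbindin, changed by -1.52 ± 0.41 and by -1.11 ± 0.21 at matched depth, and Slc8a1, the sodium calcium exchanger, by -1.18 ± 0.31 and -0.94 ± 0.18. Kl, which encodes Klotho, the co-receptor for the phosphate hormone FGF23, fell from 839.8 ± 78.3 to 357 ± 82.2 CPM (log2 change -1.23 ± 0.23, adjusted p = 0.00098), and Klk1, the kidney kallikrein, from 923 ± 33.2 to 397 ± 85.2 (-1.22 ± 0.30). Atp2b1, which exports calcium across the plasma membrane and was named after its values were seen, had 104, 93.7, 83.7 and 78.8 CPM in NV and 119, 107, 126 and 125 CPM in IRV. It rose by 0.41 ± 0.11 (adjusted p = 0.013), and missed the threshold at matched depth (adjusted p = 0.22) and without NV replicate 3, NV replicate 4, IRV replicate 3 or IRV replicate 4 (0.082, 0.096, 0.076 and 0.077). The fit with a covariate for library set compares the same IRV libraries with NV as at matched depth, with the spread taken from all libraries. In that fit Calb1, S100g, Slc8a1 and Atp2b1 missed the threshold (adjusted p = 0.054, 0.14, 0.095 and 0.15), as did Slc12a3, Klhl3 and Kcnj10 (0.11, 0.063 and 0.096).

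Within the thick ascending limb, Egf fell while Umod and Slc12a1 did not pass the test; the difference between them was not tested. Egf, the epidermal growth factor made there and in the early distal tubule, had 1299, 1304, 1215 and 1202 CPM in NV and 312, 522, 348 and 422 CPM in IRV. Every IRV value was far below every NV value, and the log2 change was -1.64 ± 0.38 (adjusted p = 0.0044) and -1.58 ± 0.21 at matched depth. Umod, which encodes uromodulin, the main protein of normal urine, stood at 1287, 1275, 1197 and 1347 CPM in NV and 1005, 1140, 1396 and 1251 CPM in IRV. Here the groups overlapped, and the difference of -0.09 ± 0.17 did not pass (adjusted p = 0.72). Slc12a1, the loop-diuretic-sensitive cotransporter, likewise differed by -0.12 ± 0.22 without passing (adjusted p = 0.72), and both differences turned positive without TMM factors (0.43 and 0.39). Sostdc1, a secreted inhibitor of BMP and Wnt signals, fell by 0.82 on the log2 scale (SE 0.21). The count of 5 fallen genes in this segment dropped to 2 without NV replicate 2 or IRV replicate 3 and to 3 without NV replicate 1, NV replicate 4 or IRV replicate 4, and the median of -0.29 became 0.23 without TMM factors. Sostdc1 did not pass at matched depth (-0.73 ± 0.25, adjusted p = 0.066) or with the covariate (0.095).

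Among the genes listed for the collecting duct, the largest fall was that of a water channel. Aqp4, a basolateral water channel listed here with principal cells, had 38.5, 54.5, 32.4 and 35.5 CPM in NV and 10.3, 3.65, 2.27 and 2.81 CPM in IRV. These are values of bulk tissue, and the segment in which Aqp4 fell was not tested. The highest IRV value, in replicate 1, was well under the lowest NV value, and the change was -3.54 ± 0.47 (adjusted p = 6.1e-05) and -2.67 ± 0.47 at matched depth. Aqp2, the vasopressin-regulated apical channel, had 36.8, 41.1, 24.3 and 33.2 CPM in NV and 10.3, 21.9, 14.8 and 14.1 CPM in IRV without overlap between groups. Its change of -1.14 ± 0.44 did not pass (adjusted p = 0.066), although without IRV replicate 2 it did (adjusted p = 0.041). Slc4a1, the anion exchanger of acid-secreting intercalated cells, differed by -0.29 ± 0.37 (adjusted p = 0.59) with overlapping values. Foxi1, the factor that specifies intercalated cells, differed by 0.54 ± 0.23 (adjusted p = 0.095), and Dmrt2, another intercalated cell factor, rose by 1.42 ± 0.38 (adjusted p = 0.011) from 2.78 ± 0.649 CPM in NV. Of 5 thin limb genes tested 1 rose and 2 fell (median -0.52, or 0.02 at matched depth with 1 in each direction), and the list summed to 298 to 368 CPM in NV and 178 to 267 CPM in IRV. The water channel gene Aqp1, also expressed in the proximal tubule, changed by -0.61 ± 0.22 (adjusted p = 0.045). Aqp1 missed the threshold without NV replicate 1, 2 or 4 or IRV replicate 1 or 3 (adjusted p from 0.054 to 0.092). Slc14a2, the urea transporter of the inner medulla, rose from 5.60 ± 5.73 to 20.4 ± 4.53 CPM (log2 change 1.78 ± 0.47, adjusted p = 0.0094), but in a fit of only the 8 libraries the adjusted p was 0.069. Without TMM factors the principal and intercalated cell medians became 0.40 and 0.47, and Aqp1 missed the threshold (-0.09).

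**Figure D2:**
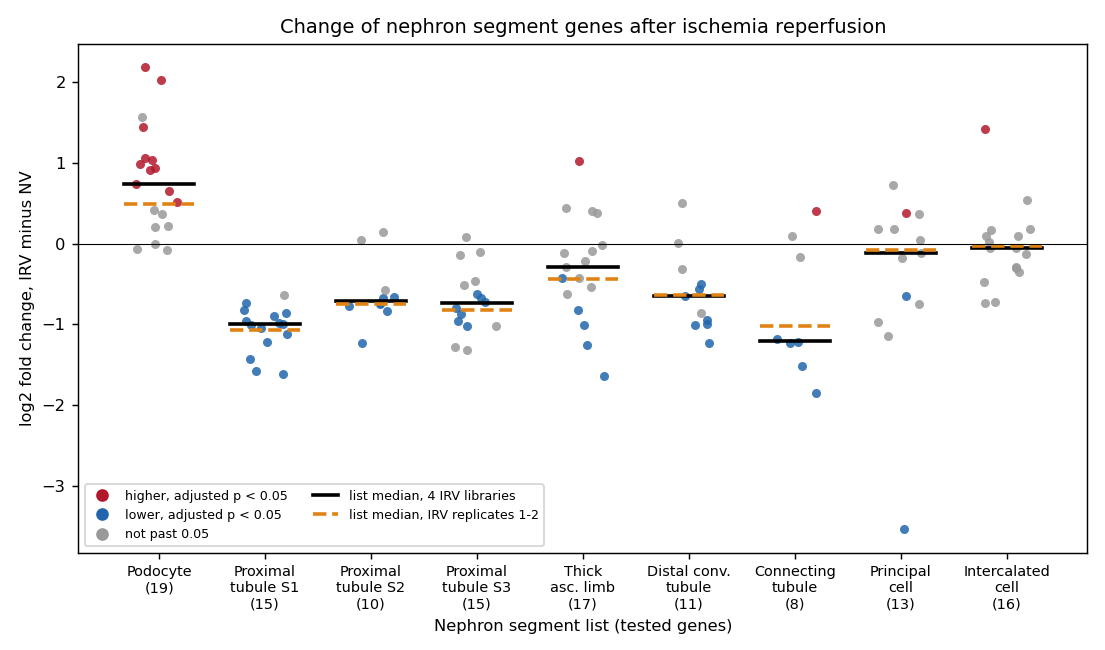
Each point is 1 tested gene of a nephron segment list, placed by its log2 change between IRV and NV, with red and blue for genes past an adjusted p of 0.05. The solid bar is the list median over 4 IRV libraries and the dashed bar that of IRV replicates 1 and 2. Podocyte genes lie mostly above 0, proximal, distal convoluted and connecting tubule genes mostly below, and both bars lie on the same side of 0 in the 9 lists shown; the thin limb, macula densa and urothelium lists, of 5 or fewer tested genes, are not drawn.

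Podocyte genes rose relative to the other genes of the kidney. Of 19 tested, 11 were higher and none lower (median 0.74, against 15.9% higher over all genes), and at matched depth 7 of 17 were higher (median 0.49). Kirrel, a slit diaphragm protein also called Neph1, had 8.55, 20.1, 13.5 and 6.18 CPM in NV and 64.8, 40.7, 61.2 and 49.6 CPM in IRV (log2 change 2.19 ± 0.32, adjusted p = 0.00014). Nphs1, which encodes the slit diaphragm protein nephrin, had 21.4, 21.04, 27.9 and 30.1 CPM in NV and 46.3, 36.5, 57.9 and 49.1 CPM in IRV. The lowest IRV value was above the highest NV value in both genes, and Nphs1 rose by 0.94 ± 0.18. The actin-binding protein gene Synpo rose by 0.91 ± 0.13 and the cell cycle inhibitor gene Cdkn1c by 1.03 ± 0.17. Tcf21, a factor listed here both with podocytes and with mesenchymal factors, rose by 2.02 ± 0.37, and the cells in which it rose were not tested. The summed level of the 19 podocyte markers was 1204 to 1450 CPM in NV and 1623 to 2089 CPM in IRV. Proximal tubule S1 markers summed to 9094 to 12230 CPM in NV and 4453 to 6216 CPM in IRV, and the part of that fall in the podocyte values, which are shares of a library, was not tested.

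Genes of smooth muscle and pericytes mostly rose, and a smaller share of endothelial genes did. Of 12 tested genes of smooth muscle, pericytes and renin cells 7 rose and 1 fell (median 0.82; 6 and 1 of 11 at matched depth), and their sum was 336.6 to 471.1 CPM in NV and 648.5 to 921.3 CPM in IRV. Tagln, which encodes the actin-binding protein transgelin, had 14.5, 13.4, 10.8 and 6.95 CPM in NV and 65.8, 58.4, 72.99 and 65.99 CPM in IRV. Every IRV value was far above the highest NV value (log2 change 2.54 ± 0.30). Pdgfrb, the pericyte receptor for PDGF-B, rose by 1.82 ± 0.24, Acta2, smooth muscle actin, by 1.32 ± 0.21, and Rgs5, a pericyte regulator of G proteins, by 0.97 ± 0.18. Among 20 vascular endothelial genes 5 rose and none fell (median 0.37), with Ptprb, the endothelial phosphatase VE-PTP, at 0.76 ± 0.13. That count fell to 1 without IRV replicate 3 and to 2 without NV replicate 3. It was 3 without NV replicate 1, NV replicate 2 or IRV replicate 4. The share of all genes that rose was 15.9% over all libraries. At matched depth 1 of 16 endothelial genes rose and 1 fell, near the shares of 6.49% and 6.83% over all genes.

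The largest rises with the same call at matched depth were those of injury proteins, matrix proteins and macrophage genes. Aoc1, a diamine oxidase that breaks down histamine and polyamines, had 1.71, 0.956, 1.80 and 3.09 CPM in NV and 75.04, 53.5, 112 and 73.5 CPM in IRV (log2 change 5.33 ± 0.51). Havcr1, the phosphatidylserine receptor KIM-1 of injured proximal tubules, stood at 1.71, 8.61, 9.90 and 2.32 CPM in NV and 118, 75.97, 115 and 133 CPM in IRV. Lcn2, the iron-siderophore carrier NGAL, stood at 4.28, 0, 3.60 and 3.86 CPM in NV and 40.1, 41.3, 55.1 and 48.1 CPM in IRV. In these genes each IRV value was many times the highest NV value, and the changes of Havcr1 and Lcn2 were 4.34 and 3.94. Of matrix and cytoskeleton genes, Ltbp2, which binds to microfibrils, rose by 4.0 ± 0.60, Dpysl3, a cytoskeletal regulator, by 3.78 ± 0.32, Smoc2, a calcium-binding matrix protein, by 3.59 ± 0.38, and Mmp14, a membrane-anchored collagenase, by 3.49 ± 0.35. Pltp, the phospholipid transfer protein of plasma lipoproteins, rose by 3.65 ± 0.38. By limma-voom Aoc1, Havcr1, Lcn2, Ltbp2 and Pltp kept their direction but missed the threshold (adjusted p = 0.083, 0.0502, 0.11, 0.17 and 0.054).

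Macrophage and antigen presentation genes made up the rest of the 15 largest rises. Mpeg1, the pore-forming protein perforin-2 of macrophages, had 10.3, 6.70, 9.90 and 10.04 CPM in NV and 134, 93.6, 194 and 178 CPM in IRV, a log2 change of 4.03 ± 0.38. Values were higher in IRV replicates 3 and 4 than in replicates 1 and 2, and at matched depth the change was 3.57 ± 0.25. Lyz2, lysozyme, rose by 4.0 ± 0.42, and Ctss, the lysosomal protease cathepsin S, by 3.64 ± 0.33. Cd74, the invariant chain that escorts MHC class II, rose from 54.7 ± 15.97 to 674 ± 212 CPM (3.62 ± 0.31), and H2-Eb1, a class II chain, by 3.55 ± 0.33. C1qa and C1qc, chains of the first complement component, rose by 3.51 ± 0.43 and 3.52 ± 0.43.

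The 15 largest falls with the same call at matched depth held genes of several kinds. Besides Aqp4, Calb1 and Egf, they included Gldc, the glycine-cleaving subunit of the mitochondrial glycine cleavage system, with 104, 67.9, 109.8 and 92.7 CPM in NV and 20.6, 35.9, 25.3 and 31.8 CPM in IRV, a log2 change of -1.70 ± 0.23 (adjusted p = 6.8e-05). Chrna4, a subunit of the nicotinic acetylcholine receptor, had 77.8, 51.6, 76.5 and 62.5 CPM in NV and 20.6, 19.4, 17.2 and 22.8 CPM in IRV, and its change was -1.75 ± 0.22 over all libraries and -1.75 at matched depth. Neither gene's groups overlapped. Rdh16f2, of the retinol dehydrogenase family, changed by -1.89 ± 0.27, Cyp4a14, a fatty acid hydroxylase, by -1.76 ± 0.45, Nat8f3, of an acetyltransferase family, by -1.78 ± 0.38, Pgam2, the muscle form of a glycolytic mutase, by -1.85 ± 0.46, and Eno1b, an intronless copy of enolase, by -1.82 ± 0.42. Mettl7a2 changed by -2.88 ± 0.73. Mettl7a2, Eno1b, Nat8f3 and Cyp4a14 belong to families with close relatives, so their counts may be uncertain; how reads were shared among the relatives was not measured.

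Some of these falls rested on particular libraries. Ceacam2, an adhesion molecule, changed by -2.77 ± 0.79 (adjusted p = 0.015), and missed the threshold without NV replicate 1 (0.051) or IRV replicate 3 (0.060). Slc22a19, an organic anion transporter, changed by -1.75 ± 0.54 and missed it without NV replicate 2, NV replicate 4, IRV replicate 3 or IRV replicate 4 (adjusted p = 0.060, 0.052, 0.084 and 0.055). Gpx6, a glutathione peroxidase, changed by -1.74 ± 0.51 and missed it without NV replicate 4 (0.063). Vmn2r84, a vomeronasal receptor, had 14.5, 33.5, 22.5 and 20.1 CPM in NV and 11.3, 9.12, 1.42 and 1.41 CPM in IRV; its change was -1.16 ± 0.35 at matched depth and -3.96 for IRV replicates 3 and 4, and the receptor-family sums differed between the same libraries, as given above, a part that was not tested. With the library set as a covariate, Mettl7a2, Ceacam2, Vmn2r84, Pgam2, Eno1b, Cyp4a14, Slc22a19 and Gpx6 missed the threshold (adjusted p = 0.085, 0.18, 0.095, 0.12, 0.071, 0.052, 0.26 and 0.13).

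Some genes of other leukocytes rose beside these. Of 6 tested T and natural killer cell genes 4 rose and none fell (median 2.14), against 15.9% higher over all genes. At matched depth 2 of 3 were higher, and by limma-voom over all libraries 1 of 6. In a fit of only the 8 IRV and NV libraries 3 were tested and 2 rose. Members with few counts in NV can pass the filter through the injured libraries, so these counts do not measure T or natural killer cells. The rest of the 18 markers of that list, among them Cd3d, Cd8a and Nkg7, did not pass the filter on low counts. All 18 markers summed to 58.7 to 81.3 CPM in NV and 139 to 177 CPM in IRV. Ptprc, the pan-leukocyte phosphatase CD45, had 29.9, 35.4, 41.4 and 24.7 CPM in NV and 94.6, 82.05, 90.2 and 78.3 CPM in IRV, with no overlap and a log2 change of 1.39 ± 0.20, and 1.42 ± 0.18 at matched depth. Thy1, a surface glycoprotein of T cells and of some fibroblasts, rose by 2.90 ± 0.49. Of 9 dendritic cell genes 3 rose (median 1.12; 1 of 5 at matched depth; markers summed to 38.5 to 51.6 CPM in NV and 89.95 to 107.9 CPM in IRV), among them Irf8, a factor of dendritic cell development, at 1.12 ± 0.26, and Cd209a, a lectin, at 2.67 ± 0.64. With the library set as a covariate Irf8 missed the threshold (adjusted p = 0.0508). By limma-voom Thy1 and Cd209a missed the threshold (adjusted p = 0.18 and 0.084). Of 3 neutrophil genes tested none passed by edgeR or DESeq2, none had an unadjusted p under 0.05 by edgeR and 2 were lower by limma-voom, and their list summed to 31.6 to 53.6 CPM in NV and 6.65 to 40.7 CPM in IRV. No marker of these lists was at 0 in all 8 libraries. The part of these markers in the falls of the nephron genes was not tested.

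Markers of tissue around the kidney were also examined. Of 7 tested adipocyte genes 4 rose (2 of 6 at matched depth), against 15.9% higher over all genes. By limma-voom 0 of the 7 passed. The list summed to 732 to 877.8 CPM in NV and 598.8 to 915.3 CPM in IRV. Cfd, the adipocyte protease adipsin, rose from 9.22 ± 4.80 to 46.1 ± 10.2 CPM (log2 change 2.29 ± 0.64). The count of 4 fell to 1 or 2 without NV replicate 1, 2, 3 or 4 or IRV replicate 2 or 4. No adrenal cortex or skeletal muscle gene passed the filter on low counts, and these lists summed to at most 24.9 and 11.7 CPM in any library.

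Among transcription regulators, Hnf4a and Esrra fell, while the list of renal epithelial factors had 8 of 37 higher and 3 lower (median 0.16), and 3 of 35 higher and 1 lower at matched depth (median -0.02). Its rises numbered 5 without NV replicate 4 or IRV replicate 4. Hnf4a, the nuclear receptor that drives proximal tubule genes, had 769, 674, 677 and 820 CPM in NV and 310.4, 399.9, 413 and 454 CPM in IRV. The IRV values were all below the NV values, and the change was -0.89 ± 0.16 (adjusted p = 0.00057) and -1.05 ± 0.17 at matched depth. Esrra, a nuclear receptor of mitochondrial gene programmes, changed by -0.79 ± 0.16 (adjusted p = 0.0017). Its relative Esrrb changed by -1.19 ± 0.37 and Nr1h3, the oxysterol receptor LXR alpha, by -0.80 ± 0.25; Esrrb missed the threshold without NV replicate 3, NV replicate 4, IRV replicate 3 or IRV replicate 4 (adjusted p = 0.066, 0.057, 0.067 and 0.057), and Nr1h3 without NV replicate 1 or IRV replicate 3 (0.068 and 0.052). Of 34 nuclear receptors tested 6 rose and 6 fell (median -0.08), where 15.9% of all genes rose and 11.1% fell. At matched depth 0 of 33 were higher by edgeR, DESeq2 or limma-voom (3 at an unadjusted p under 0.05 by edgeR). By edgeR 5 of the 33 were lower there. The covariate for the library set left 0 higher and 2 lower by edgeR. Over all libraries the rises dropped to 3 without NV replicate 3, NV replicate 4 or IRV replicate 3, and falls to 2 without IRV replicate 3.

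Lhx1, Maf, Id2 and Etv1 also fell. Lhx1, a factor of nephron formation, changed by -1.08 ± 0.30, Maf, a bZIP factor, by -0.58 ± 0.16, Id2, which holds back bHLH factors, by -0.57 ± 0.15, and Etv1, an ETS factor, by -0.60 ± 0.15. Ppara, the receptor that switches on fatty acid oxidation, had 34.2, 32.5, 36.9 and 33.2 CPM in NV and 14.4, 21.3, 22.1 and 30.3 CPM in IRV. Its values did not overlap, yet the difference of -0.55 ± 0.23 did not pass (adjusted p = 0.087), while the -0.89 ± 0.24 at matched depth did (adjusted p = 0.019), as did the value without IRV replicate 4 (0.024). Ppargc1a, the coactivator of mitochondrial gene expression, changed by -0.36 ± 0.13 at an adjusted p of 0.0497, and missed the threshold without NV replicate 1, 2 or 4 or IRV replicate 1 or 3 (adjusted p from 0.071 to 0.12). Under scaling by library totals Ppargc1a turned to 0.15, and Hnf4a, Esrra, Esrrb, Nr1h3, Lhx1, Maf, Id2 and Etv1 kept their direction but missed the threshold (Hnf4a -0.38, adjusted p = 0.095). In the fit with the library set as a covariate, Etv1, Lhx1, Maf, Nr1h3, Esrrb and Ppargc1a missed the threshold (adjusted p = 0.13, 0.059, 0.055, 0.088, 0.21 and 0.11). At matched depth, which rests on the same IRV libraries, Etv1, Maf, Nr1h3 and Ppargc1a did not pass (0.19, 0.069, 0.084 and 0.12).

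Regulators of inflammation and repair rose. The NF-kB list, which holds the DNA-binding subunits and their inhibitors, had 10 of 13 members higher and none lower (median 1.36), and 4 of 12 at matched depth (median 0.95). Nfkb2, the p100 precursor of the non-canonical subunit p52, stood at 4.28, 6.70, 10.8 and 5.41 CPM in NV and 37.01, 23.7, 42.7 and 34.7 CPM in IRV. Its partner Relb stood at 2.56, 0.956, 1.80 and 2.32 CPM in NV and 15.4, 17.02, 19.6 and 12.8 CPM in IRV. In both genes every IRV value exceeded every NV value, with changes of 2.37 ± 0.30 and 3.04 ± 0.40. Nfkb1, the p105 precursor of p50, rose by 1.22 ± 0.22, and the nuclear modulator Nfkbiz by 2.16 ± 0.35. Nfkbia, the feedback inhibitor that retains NF-kB in the cytoplasm, had 7.69, 7.65, 3.60 and 10.8 CPM in NV and 20.6, 15.2, 30.2 and 29.4 CPM in IRV and rose by 1.72 ± 0.32, though it missed the threshold at matched depth (1.20 ± 0.40, adjusted p = 0.052). By limma-voom Relb missed it (adjusted p = 0.074).

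NF-kB binds to short sites, and GGGANTTTC, here called the kappaB motif, holds letters of a common form of them. These letters were searched on both strands of the 250 bases before each gene's start in RefSeq promoters (GRCm38.p6), which matched 9941 of 13606 tested gene symbols. The motif was found in 20 of 1667 genes higher in IRV (1.2%), in 11 of 1121 lower genes (0.981%), in 101 of all 9941 tested genes (1.02%) and in 299 of all 27025 genes with a promoter (1.11%), shares close to each other. Nfkbia and Csf1 are shown because both rose and hold the motif; they, like the motif letters, were picked after the values were seen. Csf1, the growth factor of macrophages, had 12.8, 6.70, 9.003 and 11.6 CPM in NV and 23.6, 22.5, 40.04 and 33.5 CPM in IRV (log2 change 1.62 ± 0.29, adjusted p = 0.00076). Each line gives the 250 bases before the start, 5′ to 3′ on the gene's strand, with each match in capitals, Nfkbia from chr12:55492648-55492897, minus strand, and Csf1 from chr3:107760470-107760719, minus strand.
Nfkbia: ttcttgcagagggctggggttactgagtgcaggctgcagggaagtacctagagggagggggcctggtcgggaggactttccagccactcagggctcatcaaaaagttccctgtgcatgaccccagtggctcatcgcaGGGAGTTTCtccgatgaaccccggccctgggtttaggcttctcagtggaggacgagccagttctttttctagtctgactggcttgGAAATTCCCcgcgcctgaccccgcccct
Csf1: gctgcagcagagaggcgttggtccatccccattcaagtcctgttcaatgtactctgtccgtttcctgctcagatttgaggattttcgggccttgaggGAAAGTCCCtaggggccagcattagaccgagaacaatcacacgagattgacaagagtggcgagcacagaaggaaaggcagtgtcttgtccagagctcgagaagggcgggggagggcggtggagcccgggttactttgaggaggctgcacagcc
Nfkbia holds the motif 104 bases before its start on its own strand and again 19 bases before it on the opposite strand, and Csf1 holds it 144 bases before its start on the opposite strand, where it reads as the reverse complement. A match describes letters and not a bound site.

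Some cytokine signal transducers and developmental factors rose as well. Socs3, the feedback inhibitor of IL-6 type receptors, had 0.855, 0.956, 2.70 and 2.32 CPM in NV and 15.4, 13.4, 20.4 and 14.96 CPM in IRV, a rise of 3.21 ± 0.44 (adjusted p = 8.2e-05). Stat3, the factor those receptors activate, had 55.6, 42.1, 40.5 and 54.8 CPM in NV and 87.4, 93.6, 128 and 110 CPM in IRV. It rose by 1.13 ± 0.16 with every IRV library above every NV library. In the STAT and SOCS list 9 of 17 rose and none fell (median 0.45), a count that dropped to 4 without IRV replicate 3 and to 5 without IRV replicate 4, and at matched depth was 3 of 17. Sox4, a factor of progenitor-like epithelium, had 10.3, 17.2, 26.1 and 16.99 CPM in NV and 92.5, 55.9, 90.3 and 77.1 CPM in IRV and rose by 2.17 ± 0.27. Sox9, which marks regenerating tubule cells, had 1.71, 0.956, 1.80 and 0 CPM in NV and 8.22, 9.72, 19.6 and 14.8 CPM in IRV. Every IRV library lay above every NV library, with a change of 3.63 ± 0.56 and of 2.93 ± 0.84 at matched depth, and an adjusted p of 0.096 by limma-voom. In the list of SOX, RUNX and TEAD factors 5 of 20 rose and none fell, or 3 without NV replicate 1, and 3 of 15 rose at matched depth. Of all genes tested 15.9% rose, and 6.49% at matched depth. The SOX, RUNX and TEAD counts lie within a few genes of those shares.

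Among ETS factors 11 of 20 rose and 1 fell (median 0.68), though at matched depth 3 of 20 did (median 0.52). Ehf, an ETS factor of epithelia, had 14.5, 23.9, 18.9 and 20.9 CPM in NV and 50.4, 51.05, 54.8 and 58.7 CPM in IRV, with IRV values within a narrow range and a change of 1.47 ± 0.16 (adjusted p = 1.2e-05). Zeb2, a repressor active in mesenchyme and macrophages, rose from 60.1 ± 6.20 to 146 ± 26.5 CPM (1.28 ± 0.19), and Zfp36l1, which directs decay of AU-rich messages, by 1.06 ± 0.16. Factors of the E2F, MYB and MYC families rose in 3 of 17 cases (1 without NV replicate 1), and C/EBP and ATF factors in 3 of 19, shares near the 15.9% of all genes. At matched depth 0 of 14 and 0 of 16 passed by edgeR, DESeq2 or limma-voom (0 of the first list and 1 higher and 1 lower of the second at an unadjusted p under 0.05 by edgeR).

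**Figure D3:**
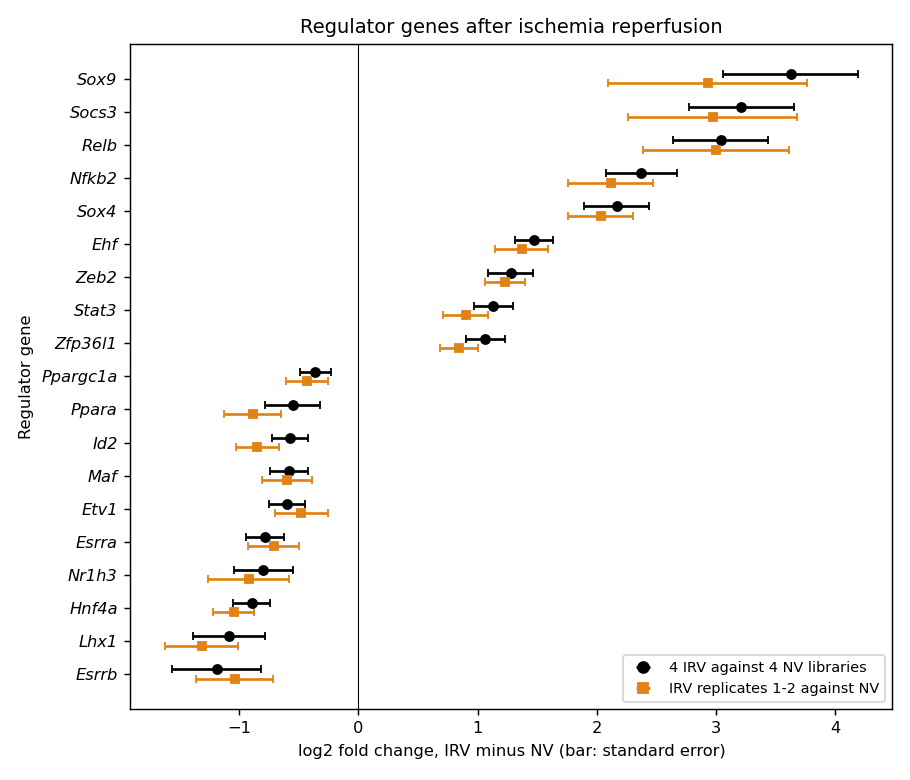
Log2 change of regulator genes between IRV and NV with its standard error, for all 4 IRV libraries (circles) and for IRV replicates 1 and 2 at matched depth (squares). The 2 estimates lie on the same side of 0 for every gene shown. Ppara did not pass an adjusted p of 0.05 over all 4 libraries.

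Some growth factor receptors and their modulators changed. Over all genes tested 15.9% rose and 11.1% fell, and 6.49% and 6.83% at matched depth. The FGF and EGF counts below lie within a few genes of these shares, with list medians of -0.11 and -0.16. In the PDGF family 4 of 6 genes rose (median 0.92; 2 of 6 at matched depth). Pdgfra, the receptor of interstitial fibroblasts, had 28.2, 18.2, 20.7 and 23.9 CPM in NV and 120.3, 96.03, 165 and 125 CPM in IRV. Its lowest IRV value was far above its highest NV value (log2 change 2.48 ± 0.26), and Pdgfrb rose as given above. In the FGF family 3 of 13 rose (1 higher and 1 lower at matched depth), among them Fgfr1, a receptor, at 0.91 ± 0.18, and Spry1, an intracellular brake on these receptors, at 1.96 ± 0.25; Fgfr1 missed the threshold at matched depth (adjusted p = 0.12). In the EGF family 3 of 12 rose and 2 fell (1 and 2 of 11 at matched depth). Beside the ligand Egf, the fall was that of Errfi1, a feedback inhibitor of the EGF receptor, with 273, 340.5, 291 and 337 CPM in NV and 148, 180.5, 207 and 222 CPM in IRV (-0.70 ± 0.15). Adam17, the protease that sheds EGF ligands, rose by 0.74 ± 0.16, and Erbb4, a receptor, by 0.56 ± 0.13, the latter with an adjusted p of 0.073 at matched depth.

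Notch genes rose in 10 of 16 cases with 1 lower (median 0.73), and in 4 of 14 at matched depth. The shares higher over all genes were 15.9%, and 6.49% at matched depth, here and for the YAP and TEAD list below. Notch1, a receptor, had 23.9, 12.4, 20.7 and 19.3 CPM in NV and 45.2, 37.7, 58.5 and 45.3 CPM in IRV, with a rise of 1.3 ± 0.21. Dtx4, a ubiquitin ligase of the pathway, had 13.7, 13.4, 14.4 and 14.7 CPM in NV and 54.5, 40.7, 70.0 and 50.1 CPM in IRV and rose by 1.95 ± 0.23. The 4 NV values of Dtx4 lay close together, far under every IRV value. Heyl, a target of Notch, rose by 2.07 ± 0.41, and at matched depth its adjusted p was 0.093. Targets of YAP and TEAD, the pair that responds to cell stretch and contact, rose in 11 of 17 cases and fell in none (median 1.08), or in 7 without IRV replicate 3, and at matched depth 6 of 16 were higher and 1 lower. Axl, a receptor tyrosine kinase, had 20.5, 9.56, 20.7 and 22.4 CPM in NV and 117, 86.3, 149 and 113 CPM in IRV and rose by 2.66 ± 0.28. Myof, a membrane repair protein, rose by 2.20 ± 0.25, and Ptpn14, a phosphatase that restrains YAP, by 1.57 ± 0.17.

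Receptors of inflammatory cytokines followed. In the TNF, IL-1 and IL-6 family 11 of 17 rose and 1 fell (median 1.14), and 7 and 1 at matched depth (median 0.68). Csf1r, the receptor for Csf1 on macrophages, had 27.4, 36.3, 18.01 and 31.7 CPM in NV and 83.3, 68.1, 107 and 88.1 CPM in IRV, a change of 1.63 ± 0.25. Il6st, the shared signal chain gp130, had 188, 178, 181 and 182 CPM in NV and 279, 277, 354 and 311 CPM in IRV and rose by 0.75 ± 0.12. The NV values of Il6st lay close together, and every IRV value was above them. Il6ra, the IL-6 receptor, rose by 1.60 ± 0.24, and Osmr, the oncostatin M receptor, by 1.43 ± 0.25.

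Of 21 integrin genes, which encode the receptors by which cells hold matrix and each other, 16 rose and none fell (median 1.04), and 11 of 17 at matched depth (median 0.90). The shares higher over all genes were 15.9%, and 6.49% at matched depth, here and for the coagulation list below. Itgav, the chain that activates latent TGF-beta, had 158, 175, 184 and 205 CPM in NV and 334, 273, 377 and 363 CPM in IRV and rose by 0.90 ± 0.13. Itgb4, the hemidesmosome chain of epithelia, rose by 1.93 ± 0.28, Itga3, a laminin receptor of podocytes and tubules, by 1.33 ± 0.19, and Itgax, the CD11c chain of dendritic cells and macrophages, by 2.70 ± 0.38. Chains of epithelia and of leukocytes were both among the 16. Genes of coagulation and fibrinolysis rose in 13 of 21 cases and fell in 2 (median 1.13; 10 and 2 of 20 at matched depth). Anxa2, the cell surface docking protein for plasminogen, had 17.1, 20.1, 19.8 and 21.6 CPM in NV and 116, 91.8, 138 and 108 CPM in IRV (2.53 ± 0.24). Plat, the plasminogen activator tPA, rose by 1.57 ± 0.16, Thbs1, the platelet and matrix protein thrombospondin 1, by 1.51 ± 0.15, and F2rl1, the protease receptor PAR2, by 2.06 ± 0.25.

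**Figure D4:**
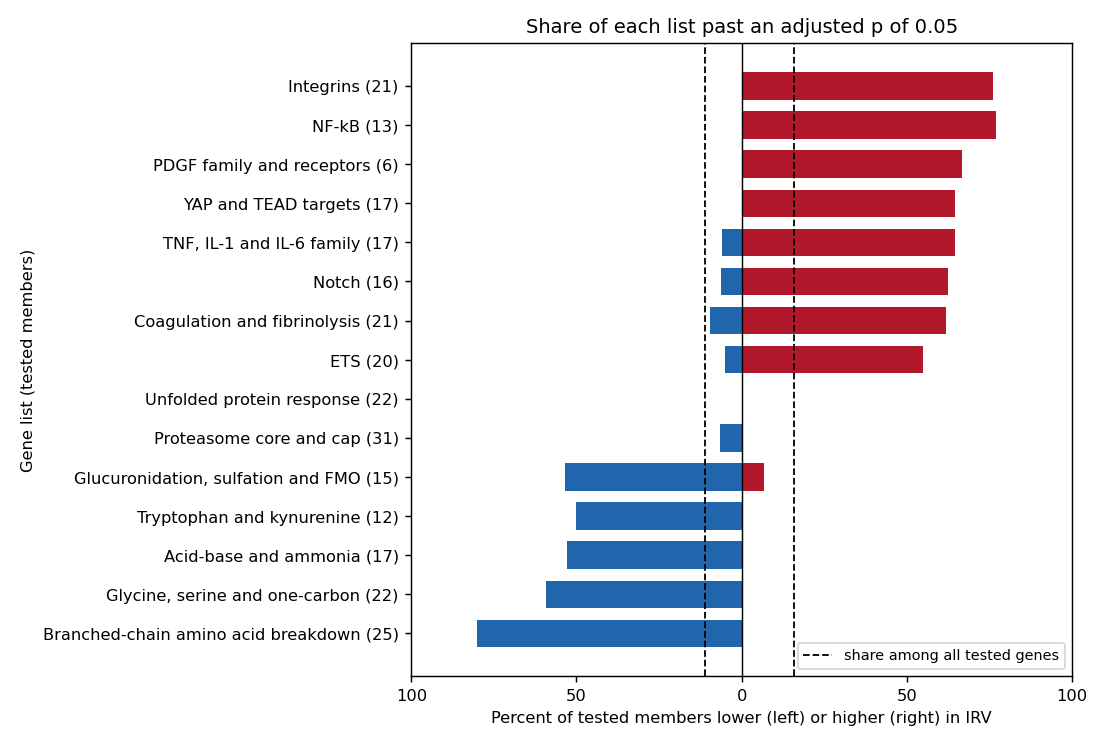
Percent of the tested members of 15 gene lists that were higher (right) or lower (left) in IRV than in NV at an adjusted p under 0.05. Dashed lines mark the shares over all tested genes, 15.9% higher and 11.1% lower. The amino acid lists lie to the left, and integrins and NF-kB genes to the right; unfolded protein response genes had none in either direction.

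Genes of several metabolic pathways fell, and the cells in which they fell cannot be told from bulk tissue. Breakdown of the branched-chain amino acids, which feeds carbon into mitochondria, had 20 of 25 genes lower and none higher (median -0.76), and 16 of 25 at matched depth (median -0.75). Mccc1, a subunit of methylcrotonyl-CoA carboxylase in leucine breakdown, had 120.5, 141, 145 and 125 CPM in NV and 40.1, 77.2, 68.02 and 72.1 CPM in IRV (-1.01 ± 0.19). Ivd, the leucine pathway dehydrogenase, changed by -0.94 ± 0.19, and Dld, the shared dihydrolipoamide dehydrogenase, by -0.86 ± 0.17. In the glycine, serine and one-carbon list 13 of 22 fell and none rose (median -0.81; 12 of 21 at matched depth). Sardh, which oxidises sarcosine, had 280.4, 234, 269 and 257 CPM in NV and 74.01, 145, 124 and 157 CPM in IRV (-1.03 ± 0.21), Gcsh, the carrier protein of the glycine cleavage system, changed by -0.96 ± 0.20, and Aldh7a1, an aldehyde dehydrogenase of lysine breakdown and betaine synthesis, by -1.05 ± 0.17.

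In the tryptophan and kynurenine list 6 of 12 fell and none rose (median -0.85; 6 of 12 at matched depth). Aadat, the mitochondrial aminotransferase that makes kynurenic acid, had 108, 129, 124 and 124 CPM in NV and 35.98, 47.4, 46.9 and 66.5 CPM in IRV. All IRV values were under all NV values, and the change was -1.26 ± 0.29 and -1.51 ± 0.25 at matched depth. Kyat3, another kynurenine aminotransferase, changed by -1.38 ± 0.23, and Kmo, kynurenine monooxygenase, by -0.91 ± 0.20. Agxt2, a mitochondrial aminotransferase of glyoxylate and methylarginines, had 70.96, 73.6, 59.4 and 63.3 CPM in NV and 34.95, 41.3, 31.7 and 37.98 CPM in IRV (-0.88 ± 0.19).

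Hnf4a binds to direct repeats that contain CAAAGTCCA, searched in the same way as the kappaB motif. These letters were found before the start of 9 of 1121 genes lower in IRV (0.803%), of 7 of 1667 higher genes (0.42%), of 40 of 9941 tested genes (0.402%) and of 122 of 27025 genes with a promoter (0.451%). Aadat and Agxt2 are shown because both fell together with Hnf4a and hold the letters; genes and letters were picked after the values were seen, and the lines give RefSeq bases of GRCm38.p6 as before, from chr8:60505874-60506123, plus strand, and chr15:10358283-10358532, plus strand, and for Agxt2 the start farther upstream of the pair listed.
Aadat: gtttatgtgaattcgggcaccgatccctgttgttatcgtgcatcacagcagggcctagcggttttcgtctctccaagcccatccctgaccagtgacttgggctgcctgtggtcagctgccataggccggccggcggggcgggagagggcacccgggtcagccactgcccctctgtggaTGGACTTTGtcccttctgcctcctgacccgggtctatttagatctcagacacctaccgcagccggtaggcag
Agxt2: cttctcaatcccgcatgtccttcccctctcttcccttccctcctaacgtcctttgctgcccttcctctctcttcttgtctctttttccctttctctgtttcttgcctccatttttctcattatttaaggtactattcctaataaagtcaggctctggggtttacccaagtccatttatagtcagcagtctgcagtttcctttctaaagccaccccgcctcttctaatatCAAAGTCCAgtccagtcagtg
The match lies 63 bases before the start of Aadat, on the strand opposite to the gene, and 12 bases before that of Agxt2 on its own strand. Whether HNF4A occupies either stretch was not measured.

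Acid-base and ammonia genes fell in 9 of 17 cases with none higher (median -0.56; 10 of 17 at matched depth). Car14, a membrane carbonic anhydrase of the proximal tubule, had 72.7, 48.8, 59.4 and 74.9 CPM in NV and 18.5, 31.6, 25.7 and 33.5 CPM in IRV (-1.18 ± 0.22). Slc4a4, the basolateral sodium bicarbonate cotransporter, changed by -0.74 ± 0.15, Car2, the cytosolic carbonic anhydrase, by -0.67 ± 0.14, and Car12, another membrane form, by -0.75 ± 0.18. Detoxifying enzymes fell in 8 of 15 cases and rose in 1 (median -0.66; 8 lower and none higher at matched depth). Fmo1, a flavin monooxygenase, had 636, 503, 585 and 532 CPM in NV and 188, 255, 204 and 289 CPM in IRV. Its IRV values were all well under its NV values (log2 change -1.26 ± 0.17, adjusted p = 5.9e-05), and Nat8, an acetyltransferase of the mercapturate pathway, changed by -0.93 ± 0.24. Under the same scaling by totals the medians were -0.25 for branched-chain amino acids, -0.29 for glycine, -0.32 for tryptophan, -0.05 for acid-base and -0.14 for detoxifying genes. Under it Ivd, Dld, Sardh, Gcsh, Kmo, Agxt2, Slc4a4, Car2, Car12 and Nat8 kept their direction but missed the threshold.

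Some subunits of the sodium pump, which drives all transport in the tubule, moved in opposite directions. Fxyd2, the regulatory gamma subunit of tubule cells, had 722, 684, 759.9 and 712 CPM in NV and 303, 469, 401 and 439 CPM in IRV and changed by -0.83 ± 0.18. Atp1b2, a beta subunit typical of glia, had 11.97, 7.65, 8.10 and 16.2 CPM in NV and 40.1, 20.7, 34.9 and 32.6 CPM in IRV and rose by 1.52 ± 0.26. The groups overlapped in neither gene. Fxyd5, a regulatory subunit of many epithelia and leukocytes, rose by 2.19 ± 0.35. In the list 4 of 12 rose and 3 fell (3 and 4 of 10 at matched depth), and 1 fell without NV replicate 4, IRV replicate 1 or IRV replicate 3. Of all genes tested 15.9% rose and 11.1% fell, and 6.49% and 6.83% at matched depth. The list's counts over all libraries lie within a few genes of those shares. Fxyd2 missed the threshold without TMM factors (-0.33, adjusted p = 0.15).

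Protein quality control gave few calls, where 15.9% of all genes rose and 11.1% fell (6.49% and 6.83% at matched depth). None of 22 genes of the unfolded protein response passed by edgeR, DESeq2 or limma-voom (median -0.02), with 1 higher and 1 lower at an unadjusted p under 0.05 by edgeR, and of 31 proteasome subunits 2 were lower and none higher (median -0.12), a count of 0 without NV replicate 2 or IRV replicate 3. At matched depth 1 of 20 unfolded protein response genes was lower, and 0 of 31 proteasome subunits passed by edgeR, DESeq2 or limma-voom (2 lower at an unadjusted p under 0.05 by edgeR). In IRV replicates 3 and 4 against NV, 3 of 22 unfolded protein response genes were higher and 1 of 31 proteasome subunits lower. In that contrast 19.1% of all genes were higher and 24.2% lower. Of 4 small heat shock genes 3 rose (median 1.37; 2 of 4 at matched depth). Hspb1, the chaperone HSP27, had 4.28, 1.91, 0 and 3.09 CPM in NV and 29.8, 11.6, 19.7 and 19.2 CPM in IRV (3.03 ± 0.49), and Hspb8, its relative in chaperone-assisted autophagy, rose by 1.99 ± 0.29. By limma-voom the adjusted p of Hspb1 was 0.10.

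Foxj1, the master factor of motile cilia, was picked after its values were seen, from 99 genes with no count in NV and a count in every IRV library. It had 0 counts in the 4 NV libraries and 3, 12, 39 and 40 counts in the 4 IRV libraries. Taking 3 counts over the NV group as the limit that 0 allows, its pooled level of 5.38 CPM in IRV was 8.28-fold that limit. The limit covers counting error only. Foxj1 was chosen by its 0 in NV, and IRV replicates 3 and 4 were deeper than the NV libraries, so the ratio is no test of a rise. By limma-voom the adjusted p of Foxj1 was 0.20, and the gene did not enter the matched-depth test.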

How the data were processed

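RNA of 16 kidney libraries was measured by poly(A)-selected, directional sequencing, per the labels' protocols. The authors deposited expected counts of 40472 genes as whole numbers, without normalisation. Salmon 1.3.0, DESeq2 1.30.1, Trim Galore 0.6.6, FastQC 0.11.3 and build GRCm39 are named in the submitters' processing notes. Symbols matched 40276 IDs.

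Genes were kept with filterByExpr (minimum count 10) and tested by edgeR 4.0.16 (R 4.3.3) quasi-likelihood on TMM-scaled counts, all 16 libraries in 1 fit with group as the only term. Adjusted p-values are Benjamini-Hochberg over all genes tested, with a threshold of 0.05, and SE is the log2 change divided by the square root of F. The matched-depth fit took the 10 libraries under 2000000 counts. Among simulated counts 200 genes were changed; for IRV against NV (12447 genes) 53% of the 2-fold and 83% of the 4-fold changes were recovered with 5 false calls, and at matched depth (12517 genes) 27% and 77% with 9 false calls. The simulation drew every library from 1 mean profile at that library's own total. It held no difference in receptor counts within IRV and no change beyond the 200 genes. Its rates of recovery and false calls therefore need not hold for the measured libraries. No 2 libraries of a group agreed within sampling noise.

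The members and lists were chosen with earlier results of these data known. Named genes were the 15 largest rises and 15 largest falls past 0.05 in both fits, without overlap and averaging 3 or more in log2 CPM, up to 4 list members with the smallest p, 8 regulators per direction, and a preset group. Gene models, pseudogenes and immune receptor segments were excluded from the first part, and not every gene the rule names is reported here. Alternatives were DESeq2 1.42.0, limma-voom 3.58.1, no TMM factors, other filters, other library sets, a replicate block and leaving out each library. Motifs were searched in 250 bases per promoter. SD and SE hold the spread between libraries, and the limit taken from a count of 0 covers counting error only.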

Additional observations from a re-analysis of the deposited data

Results flagged for a closer look

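In each group of 4 libraries the named genes were examined for a library far from the other 3, by the gap to its nearest neighbour divided by the range, against Dixon's critical value at the 95% level, which chance gives in about 1 of 20 groups. Of 298 groups examined, 11 had such a library. NV replicate 2 was the one that stood apart for 6 genes. It held 0 CPM of Lcn2 against 3.60 to 4.28 in the other NV libraries, 6.70 CPM of Mpeg1 against 9.90 to 10.3, and 9.56 CPM of Axl against 20.5 to 22.4. It also held 400 CPM of Calb1 against 488 to 505, 155 CPM of Slc5a2 against 218 to 230, and 2790 CPM of Slc34a1 against 3310 to 3390. NV replicate 1 held 16.2 CPM of Nfkb1 against 28.7 to 30.9, and NV replicate 4 held 3.86 CPM of Thy1 against 1.71 to 1.91. In IRV, replicate 1 held 1.03 CPM of Nat8f3 against 16.5 to 18.8 and 11.3 CPM of Esrrb against 7.29 to 7.54, and replicate 2 held 61.4 CPM of Cfd against 39.3 to 42.1. The total of NV replicate 4, 1538622 counts, lay above the 1393716 to 1408130 of the other NV libraries.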

How the results depend on the processing

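Over all tested genes, the count of genes higher in IRV ranged from 1361 to 2379 and of genes lower from 1122 to 2380 when 1 library was left out. Without IRV replicate 3 the higher count was 1361, and without IRV replicate 1 the lower count was 2380. At matched depth the ranges were 402 to 755 and 208 to 1163, where leaving out IRV replicate 1 or 2 leaves 1 IRV library that is assumed to vary like the other groups. IRV replicates 1 and 2 against NV in the fit of all libraries gave 1080 higher (7.93%) and 835 lower (6.13%). The library set as a covariate is the same model, since only IRV holds both sets, and gave the same counts. IRV replicates 3 and 4 gave 3291 lower. Scaled by library totals, the counts were 5716 and 246, and 1889 and 307 at matched depth. Without the low-count filter 600 were lower, limma-voom gave 3324 lower, and DESeq2 gave 570 higher at matched depth. The cause of these shifts was not tested.

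The replicate numbers are not said to pair the libraries, and the correlations of same-numbered NV and IRV deviations were -0.142, 0.342, 0.093 and 0.213 over 5000 genes. IRV replicates 1 and 3 did not correlate best with their own number. With the replicate number as a block, 2075 genes were higher and 1600 lower, and 627 and 692 at matched depth. Among the named genes the block left Ppargc1a outside the threshold (adjusted p = 0.051) and brought Kap and Aqp2 within it (0.026 and 0.022).

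Of 149 named genes 142 passed the threshold, and 132 of them passed whichever of the 8 libraries was left out. Scaled by library totals, 36 lost the call and Umod, Slc12a1, Slc4a1 and Ppargc1a turned to 0.43, 0.39, 0.23 and 0.15. Without the low-count filter 33 lost it, and Umod, Slc12a1 and Slc4a1 turned to 0.22, 0.19 and 0.035. Umod also turned to 0.052 with IRV replicates 3 and 4 alone, and with 1 library left out Slc12a1 ranged from -0.262 to 0.003, the latter without IRV replicate 1. At 973812 to 1659983 counts per library at matched depth, genes of a few CPM rest on few counts, and a call missed there does not show that a gene did not differ.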
